A study of Homo sapiens with 6 samples.

Results

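The 42 genes described here encode the chromatin regulators that oppose Polycomb: subunits of the SWI/SNF remodeling complexes, the KMT2 and SETD1 methyltransferases with their shared partners, and the methyltransferases ASH1L, NSD1, NSD2 and NSD3. They were listed by name, by their place in these complexes, with earlier results of these data known. All 42 were among the 60671 gene rows of the count files, and 40 of them were among the 12364 genes with enough reads to be tested. Expression was measured in a single clone of K562, a human chronic myeloid leukemia line, in which doxycycline induces Lamin B1 joined to M.CviPI, an enzyme that methylates GpC sites. Cultures were treated for 72 h with 0.1% DMSO as vehicle (DMSO, n = 3) or with 1 µM GSK343, an inhibitor of the Polycomb methyltransferase EZH2 (EZH2i, n = 3). Both groups carried the fusion and received doxycycline at 1 µg/mL for the final 24 h, so no library shows these genes without fusion and doxycycline. The replicates were separate cultures of the clone, and differences between clones were therefore not sampled.

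Polycomb repressive complex 2 places methylation on lysine 27 of histone H3 through EZH2 and keeps developmental genes silent. Trithorax-group proteins were found in flies as the counterweight to this silencing, and their human homologs fall into SWI/SNF complexes, which slide and evict nucleosomes with energy from ATP, and COMPASS-type complexes, which methylate lysine 4 of the same histone. ASH1L and the NSD enzymes methylate lysine 36, a mark that hinders PRC2 on the same histone tail. The comparison of DMSO with EZH2i asks whether transcripts of this opposing machinery differed when EZH2 was inhibited.

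Each library held 6327544 to 8987768 reads on genes, which were 63.6% to 67.9% of its listed reads. The remaining reads lay in rows that name no gene, and the share assigned to no feature was 7.43% to 8.51% in 5 libraries and 12.7% in EZH2i replicate 3. All 9 markers of the K562 erythroid program that are reported, among them *GATA1* and *KLF1*, had more than 3 reads in every library. Their summed level was 797 to 904 CPM in DMSO and 932 to 1007 CPM in EZH2i, where CPM is the read count scaled by library size and edgeR's TMM factor. Of the markers of other cell types, 1 of 4 for T cells (*CD3D*), 1 of 3 for monocytes (*LYZ*), 1 of 3 for fibroblasts (*COL1A1*) and 1 of 3 for epithelium (*EPCAM*) passed 3 reads in every library. Their summed levels in DMSO and EZH2i were 58.7 to 71.0 and 83.2 to 100.8 CPM for T cells and 11.1 to 16.4 and 20.3 to 23.3 CPM for monocytes. The corresponding ranges were 1.25 to 2.38 and 4.88 to 8.31 CPM for fibroblasts and 72.7 to 83.5 and 61.3 to 66.7 CPM for epithelium, with *CSF1R* and *KRT5* at 0 reads. The part of these markers in the values below was not tested.

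Transcripts of the Polycomb antagonists were detected broadly, and none of the 40 tested genes was called after EZH2 inhibition with all libraries and the filter on low counts. The quasi-likelihood test of edgeR, adjusted by the Benjamini-Hochberg method, called 527 of the 12364 tested genes at an adjusted p-value under 0.05, which is 4.26%, and 0 of the 40. DESeq2 and limma-voom also called 0 of the 40, while edgeR called 3 without a filter on low counts, 1 without DMSO replicate 3 and 1 without EZH2i replicate 1. In bulk libraries like these, fewer cells with a transcript and less of it per cell cannot be told apart. An unadjusted p-value under 0.05 was reached by 6 of the 40 genes (15%), against 19.1% of all tested genes. Of these 6, *PHF10*, *ASH2L*, *SMARCB1* and *DPY30* had lower mean levels in EZH2i (10.0% of the 40 genes against 8.21% of all), and *KMT2C* and *RBBP5* had higher ones (5.0% against 10.9%). The lowest adjusted p-value was 0.0755 by edgeR, for *PHF10*. The libraries of the 2 groups did not overlap in CPM for 7 of the 40 genes (17.5%), against 24.5% of all tested genes. The shares of 15% and 17.5%, and the 5.0% of higher genes, lay below those of all tested genes. The 10.0% of lower genes lay above. None of these differences in share was tested. An exact permutation test on 1 gene has a smallest p-value of 0.1 in this design of 3 libraries a group.

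The sizes of difference that these data allow were small for most of the 40 genes. The log2 fold change (EZH2i over DMSO) had a median of -0.03 over the 40 genes and of -0.0002 over all tested genes, and 18 of the 40 lay above 0 and 22 below. Its absolute size had a median of 0.084 for the 40 genes and 0.176 for all tested genes. The 95% confidence interval of the log2 fold change lay wholly between -0.5 and 0.5 for 28 of the 40 genes (70.0%), against 45.3% of all tested genes. It lay between -1 and 1 for all 40, against 83.7% of all tested genes. Intervals narrow as reads increase, and 33 of the 40 genes stood above the median expression of the tested genes. Neither these shares nor the absolute sizes were therefore compared at equal expression. The summed level of the 42 genes was 4075 ± 106 CPM in DMSO and 4014 ± 112 CPM in EZH2i (mean ± SD, n = 3 each).

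**Figure D1:**
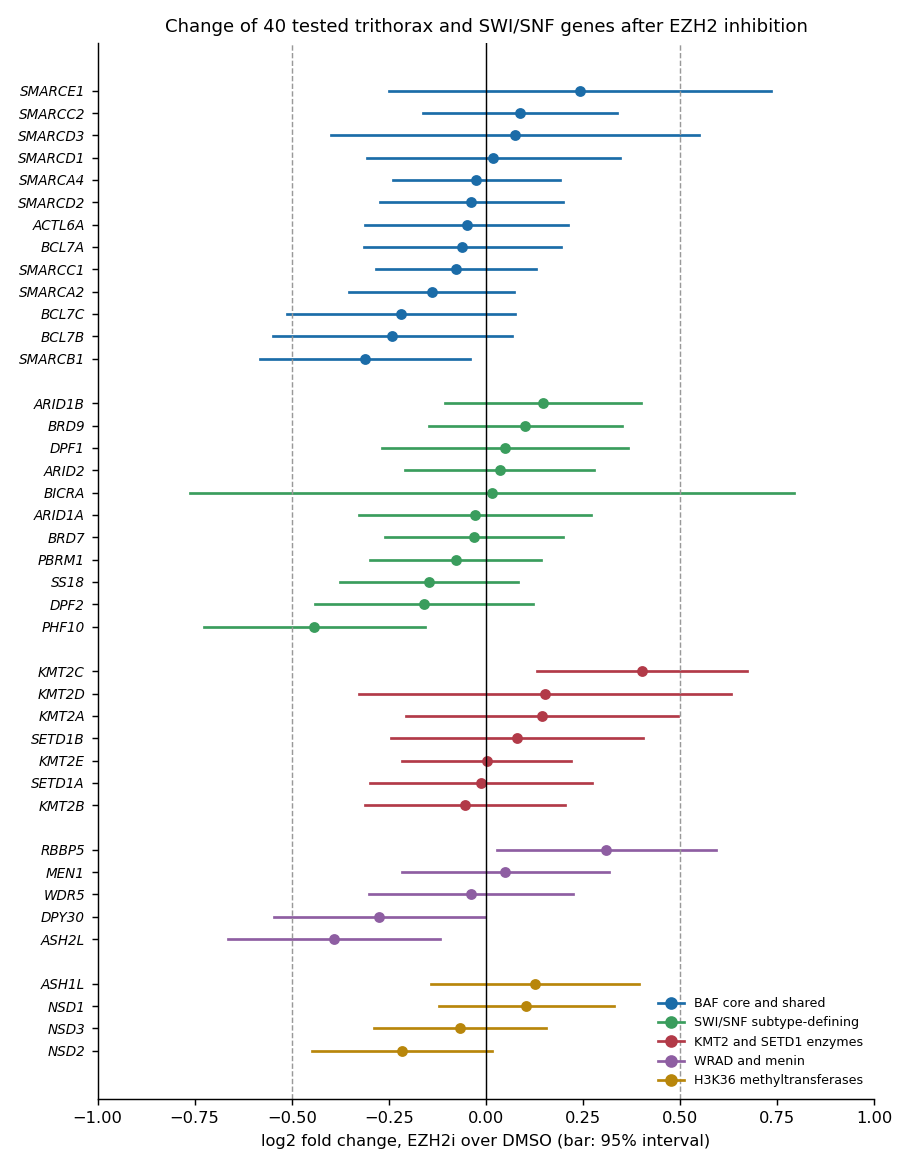
Log2 fold change (EZH2i over DMSO) of each of the 40 tested genes with its 95% confidence interval from the edgeR fit, grouped by role; dashed lines mark the bounds of -0.5 and 0.5. The points run from -0.44 for *PHF10* to 0.40 for *KMT2C*, and all intervals lie between -1 and 1.

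Mammalian SWI/SNF complexes are built from alternative paralogs, and several of the choices separate tissues. Of the DPF subunits, which read acetylated histone tails, DPF1 and DPF3 enter neuronal and muscle complexes and DPF2 is the widely used member. ACTL6B is the neuron-specific actin-like subunit, and ACTL6A is its counterpart in dividing cells. Reads fell unevenly on these paralogs. *ACTL6B* had 0 reads in all 6 libraries, which allows up to 3 reads in each, while *ACTL6A* had 56.5 ± 8.07 CPM in DMSO and 54.5 ± 4.28 CPM in EZH2i, with opposite-strand exons over 12.7% of the positions within 500 bases of its annotated transcript ends. *DPF3* had 3, 5 and 5 reads in DMSO replicates 1 to 3 and 6, 4 and 8 reads in EZH2i replicates 1 to 3, too few to be tested. *DPF1* had 18.6 ± 1.03 and 19.3 ± 2.41 CPM and *DPF2* had 70.1 ± 2.72 and 62.7 ± 12.9 CPM in DMSO and EZH2i. The limit of 3 reads given for *ACTL6B* covers counting error only.

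The promoters of these alternative subunits are shown because the 4 genes run from no reads to ready detection, and because CG dinucleotides, the substrate of CpG methylation, mark most promoters of widely used genes. Each sequence runs from 250 bases before to 50 bases after the most upstream RefSeq transcription start on GRCh38.p14, written 5′ to 3′ on the strand of the gene, with each CG in capitals. *DPF1* lies on the minus strand at chr19:38229646-38229945 and its promoter holds 36 CG, *DPF2* on the plus strand at chr11:65333602-65333901 with 33 CG, *DPF3* on the minus strand at chr14:72894052-72894351 with 18 CG, and *ACTL6B* on the minus strand at chr7:100656399-100656698 with 22 CG.
DPF1: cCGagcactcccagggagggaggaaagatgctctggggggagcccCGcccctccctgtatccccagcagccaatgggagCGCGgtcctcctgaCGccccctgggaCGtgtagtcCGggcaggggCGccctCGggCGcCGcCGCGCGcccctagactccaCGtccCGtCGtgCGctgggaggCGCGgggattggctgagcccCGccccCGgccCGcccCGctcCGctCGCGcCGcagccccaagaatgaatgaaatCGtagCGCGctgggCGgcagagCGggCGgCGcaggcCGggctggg
DPF2: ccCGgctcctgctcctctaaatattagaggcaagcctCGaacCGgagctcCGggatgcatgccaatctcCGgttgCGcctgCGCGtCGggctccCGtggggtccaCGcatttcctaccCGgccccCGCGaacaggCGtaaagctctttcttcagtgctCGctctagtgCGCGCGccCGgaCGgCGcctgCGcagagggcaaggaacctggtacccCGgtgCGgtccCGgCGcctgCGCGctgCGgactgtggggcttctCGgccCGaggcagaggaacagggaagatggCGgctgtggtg
DPF3: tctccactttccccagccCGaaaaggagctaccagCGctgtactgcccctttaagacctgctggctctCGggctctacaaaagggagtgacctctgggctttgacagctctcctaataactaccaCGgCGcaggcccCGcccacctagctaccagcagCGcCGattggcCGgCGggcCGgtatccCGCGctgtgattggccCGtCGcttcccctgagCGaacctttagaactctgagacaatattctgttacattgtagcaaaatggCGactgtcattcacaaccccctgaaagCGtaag
ACTL6B: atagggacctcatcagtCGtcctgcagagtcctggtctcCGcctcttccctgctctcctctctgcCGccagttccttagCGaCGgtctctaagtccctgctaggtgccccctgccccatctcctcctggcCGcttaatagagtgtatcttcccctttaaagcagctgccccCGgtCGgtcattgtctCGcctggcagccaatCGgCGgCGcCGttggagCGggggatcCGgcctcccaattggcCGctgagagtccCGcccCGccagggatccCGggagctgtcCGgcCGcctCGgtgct
All 4 promoters held more than the median of 14 CG over all 35116 RefSeq promoters of this length. At least 18 CG were held by 44.5% of these, and at least 1 by 96.04%. The number of CG did not set tested genes apart. The promoter of *RBBP5*, which was tested, held 18 CG, as few as that of *DPF3*, which had too few reads. RefSeq promoters were matched for 34 of the 42 genes, with 57 starts, and their median was 31 CG. The ratio of observed to expected CG was at least 0.6 in 82.5% of the 57 starts and in 48.9% of all promoters. The search counted the letters CG, which read the same on both strands, and says nothing of their methylation in these cells.

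The ATPases and the scaffold subunits that every SWI/SNF complex needs had close levels in both groups. *SMARCA4*, the ATPase BRG1, had 541, 595 and 641 CPM in DMSO replicates 1 to 3 and 621, 567 and 559 CPM in EZH2i replicates 1 to 3. The ranges overlap almost wholly, and the log2 fold change was -0.02 with a 95% interval from -0.24 to 0.19. *SMARCA2*, the alternative ATPase BRM, had 154 ± 9.64 CPM in DMSO and 139 ± 6.53 CPM in EZH2i. *SMARCC1*, a scaffold on which the core assembles, had 700 ± 35.2 and 664 ± 27.9 CPM, and its paralog *SMARCC2* had 80.8 ± 7.73 and 85.8 ± 11.2 CPM. Of the SMARCD subunits, which bridge the complex to transcription factors, *SMARCD1* had 31.2 ± 4.56 and 31.4 ± 5.84 CPM, *SMARCD2* had 106 ± 13.5 and 104 ± 3.34 CPM, and *SMARCD3* had 8.31 ± 1.49 and 8.66 ± 1.95 CPM. Exons on the opposite strand cover 41.7% of the positions near the annotated transcript ends of *SMARCC2* (*MYL6*) and 39.0% of those of *SMARCD3* (*CHPF2*), and a further gene on the same strand covers 13.4% of those of *SMARCC2*. The strand setting of the counting was not stated in the sources used here, so the levels of both genes are uncertain. Of the BCL7 subunits, *BCL7A* had 49.3 ± 5.32 and 47.4 ± 3.59 CPM, *BCL7B* had 25.8 ± 1.08 and 21.8 ± 3.43 CPM, and *BCL7C* had 33.1 ± 5.18 and 28.3 ± 1.36 CPM. The groups of *BCL7B* did not overlap, with EZH2i lower by 0.455 CPM at the nearest. None of these SWI/SNF genes passed the test, but 95% intervals reached -0.55 for *BCL7B*, -0.51 for *BCL7C* and 0.55 for *SMARCD3*.

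*SMARCB1*, the core subunit lost in rhabdoid tumors (chr 22, 23786931 to 23838009, plus strand), came nearest to a call among the core genes. It had 38.9, 33.0 and 32.9 CPM in DMSO and 28.0, 29.3 and 26.9 CPM in EZH2i. The EZH2i libraries all lay below the DMSO libraries, by 3.65 CPM at the nearest. Exons of *DERL3* on the opposite strand cover 13.4% of the positions near its transcript ends. Its log2 fold change was -0.31 ± 0.13 (SE) with an edgeR adjusted p-value of 0.186. *SMARCE1*, a DNA-binding core subunit, had the highest log2 fold change of the core list at 0.24, from 5.46 ± 0.680 CPM in DMSO and 6.47 ± 0.955 CPM in EZH2i, with an interval from -0.25 to 0.73. It was 0.11 without EZH2i replicate 2 and 0.35 without DMSO replicate 3. Of the positions within 500 bases of an annotated *SMARCE1* transcript end, 46.45% lie on exons of a readthrough gene on the same strand, to which counting by unique assignment could lose reads, so its level is uncertain. Over the 13 tested genes of the core list the median log2 fold change was -0.05, and 4 lay above 0.

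Subunits that set the type of SWI/SNF complex also gave no call. In canonical BAF, *ARID1A* had 137, 137 and 132 CPM in DMSO and 100, 131 and 169 CPM in EZH2i. The EZH2i libraries lay on both sides of the DMSO libraries and spread more widely, at a log2 fold change of -0.03 with an interval from -0.33 to 0.27. *ARID1B*, its mutually exclusive paralog, had 78.4 ± 5.69 and 86.8 ± 12.9 CPM, and *SS18*, the gene fused in synovial sarcoma, had 55.4 ± 0.614 and 50.02 ± 2.78 CPM. The groups of *SS18* did not overlap, with EZH2i lower by 2.66 CPM at the nearest. In PBAF, *PBRM1* had 101 ± 7.90 and 95.5 ± 4.53 CPM, *ARID2* had 46.1 ± 3.15 and 47.2 ± 3.02 CPM, and *BRD7* had 167 ± 12.1 and 163 ± 17.9 CPM. The level of *BRD7* is uncertain, since exons of *ADCY7* on the opposite strand cover 66.4% of the positions near its transcript ends. In the non-canonical complex, *BRD9* had 97.2 ± 9.12 and 104 ± 14.1 CPM, and *BICRA*, its GLTSCR1 subunit, had 3.24 ± 1.13 and 3.30 ± 1.49 CPM. *BICRA* had the fewest reads of the tested genes, 150 over all libraries, and the widest interval, from -0.76 to 0.79. Over the 11 tested genes of this list the median log2 fold change was -0.03, and 5 lay above 0.

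*PHF10*, the PHD-finger subunit BAF45A of PBAF (chr 6, 169703902 to 169725566, minus strand), had the lowest log2 fold change of the 40 genes. It had 61.3, 69.8 and 48.7 CPM in DMSO and 39.96, 44.5 and 47.8 CPM in EZH2i. The groups did not overlap, but DMSO replicate 3 and EZH2i replicate 3 differed by 0.842 CPM. The log2 fold change was -0.44 ± 0.14 (SE), with a 95% interval from -0.73 to -0.16 and an edgeR adjusted p-value of 0.0755. Without DMSO replicate 3 it was -0.57 at an adjusted p-value of 0.0408, and without a filter on low counts the adjusted p-value was 0.0169. Over all alternatives the adjusted p-value ran from 0.0169 to 0.330. Of the positions near its annotated transcript ends, 48.2% are covered by exons of *C6orf120* on the opposite strand, so with the strand setting unknown the reads of the 2 genes may not be told apart.

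**Figure D2:**
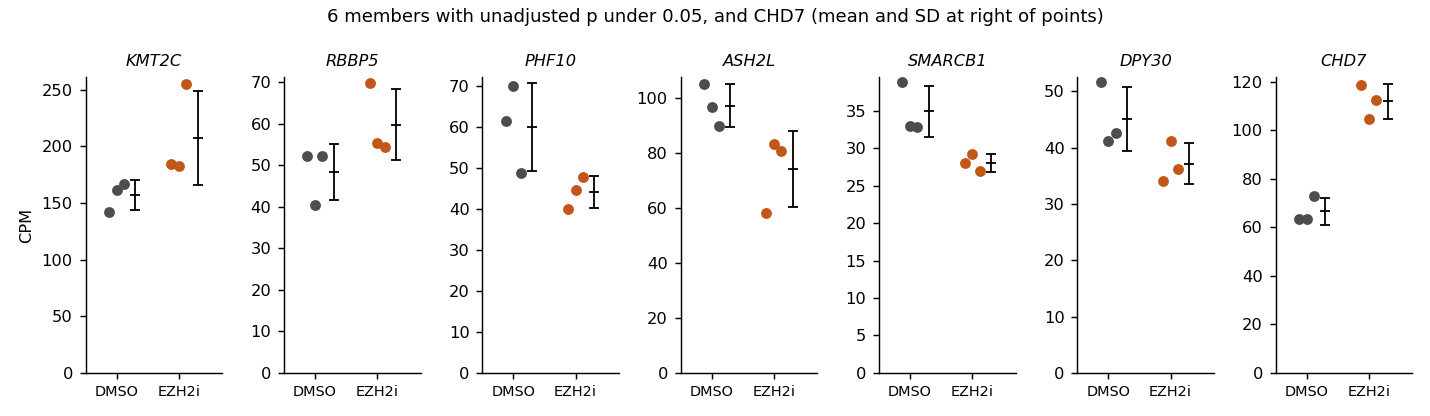
CPM of the 6 genes with an unadjusted p-value under 0.05 and of *CHD7* in each library, DMSO beside EZH2i, with the mean and SD beside the points. *CHD7* separates widely, from 63.3 to 72.9 CPM in DMSO and from 104.5 to 118.7 CPM in EZH2i, while the groups of *PHF10* nearly touch and those of *DPY30* overlap.

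The KMT2 and SETD1 enzymes are the catalytic subunits of COMPASS-type complexes. *KMT2A* (MLL1) and *KMT2B* act at promoters and at developmental genes, *KMT2C* and *KMT2D* place monomethylation at enhancers, *SETD1A* and *SETD1B* carry out most promoter trimethylation, and *KMT2E* is a related protein without evident methyltransferase activity. *KMT2C* (chr 7, 152134922 to 152436644, minus strand) had the highest log2 fold change of the 40 genes. It had 142, 162 and 167 CPM in DMSO and 185, 182 and 255.5 CPM in EZH2i. All EZH2i libraries lay above all DMSO libraries, and EZH2i replicate 3 stood well above the other EZH2i libraries. The log2 fold change was 0.40 ± 0.13 (SE), with a 95% interval from 0.13 to 0.67 and an edgeR adjusted p-value of 0.0875. Without EZH2i replicate 3 it was 0.23 at an adjusted p-value of 0.338, and without EZH2i replicate 1 it was 0.48 at an adjusted p-value of 0.0257. Of the windows of 50 bases, the read length, near its transcript ends, 7.28% occur elsewhere in the genome.

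The other enzymes of this list did not pass the test, and several turned on EZH2i replicate 3. *KMT2A* had 108, 103 and 88.5 CPM in DMSO and 82.5, 97.9 and 151 CPM in EZH2i. Its log2 fold change was 0.14 with all libraries and -0.15 without EZH2i replicate 3, and another gene on the same strand covers 15.6% of the positions near its ends. *KMT2D* had 19.2, 16.0 and 14.1 CPM in DMSO and 13.0, 14.6 and 27.1 CPM in EZH2i, and its log2 fold change was 0.15 with all libraries and -0.24 without that library. For both genes, the other EZH2i libraries lay within or below the range of DMSO. *KMT2B* had 53.9 ± 3.57 and 52.0 ± 6.89 CPM, *KMT2E* had 231 ± 23.4 and 232 ± 6.29 CPM, *SETD1A* had 28.4 ± 1.501 and 28.2 ± 3.61 CPM, and *SETD1B* had 16.9 ± 1.88 and 18.0 ± 1.47 CPM. The summed level of the 7 enzymes was 570, 637 and 604 CPM in DMSO and 608, 616 and 774 CPM in EZH2i, so that the highest sum was also that of EZH2i replicate 3.

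WDR5, ASH2L, RBBP5 and DPY30 form the WRAD module that the active KMT2 and SETD1 methyltransferases need for full activity. Menin, encoded by *MEN1*, joins KMT2A and KMT2B. Members of this module lay on both sides of 0. *ASH2L* (chr 8, 38105493 to 38144076, plus strand) had 105, 96.5 and 89.8 CPM in DMSO and 58.1, 83.0 and 80.8 CPM in EZH2i. The groups did not overlap, and EZH2i replicate 1 stood apart at the low end. Exons of *STAR* on the opposite strand cover 14.5% of the positions near its transcript ends. The log2 fold change was -0.39 ± 0.13 (SE), with an interval from -0.66 to -0.12 and an edgeR adjusted p-value of 0.0992. Over the alternatives, its adjusted p-value ran from 0.0252, without a filter on low counts, to 0.305, and its log2 fold change was -0.24 without EZH2i replicate 1.

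*RBBP5* (chr 1, 205086142 to 205122015, minus strand) had 52.2, 40.5 and 52.2 CPM in DMSO and 69.8, 55.4 and 54.3 CPM in EZH2i. The groups were separated by 2.05 CPM, and the log2 fold change was 0.31 ± 0.13 (SE) at an edgeR adjusted p-value of 0.213. It was 0.19 without EZH2i replicate 1 and 0.20 without DMSO replicate 2. Near its transcript ends 45.7% of the 50-base windows occur more than once in the genome, so part of its reads may not be assignable. *DPY30* (chr 2, 31867809 to 32039805, minus strand) had 51.6, 41.1 and 42.7 CPM in DMSO and 34.1, 41.1 and 36.2 CPM in EZH2i, with overlapping groups, a log2 fold change of -0.27 ± 0.13 (SE) and an edgeR adjusted p-value of 0.256. Without DMSO replicate 1 its log2 fold change was -0.17. Of the 50-base windows near the transcript ends of *DPY30*, 14.0% occur more than once in the genome. *WDR5*, with opposite-strand exons over 18.1% of the positions near its ends, had 41.8 ± 3.96 and 40.7 ± 3.79 CPM, and *MEN1* had 65.5 ± 5.17 and 67.8 ± 11.02 CPM. Of the 5 genes, 2 had log2 fold changes above 0 and 3 below, and none passed the test.

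**Figure D3:**
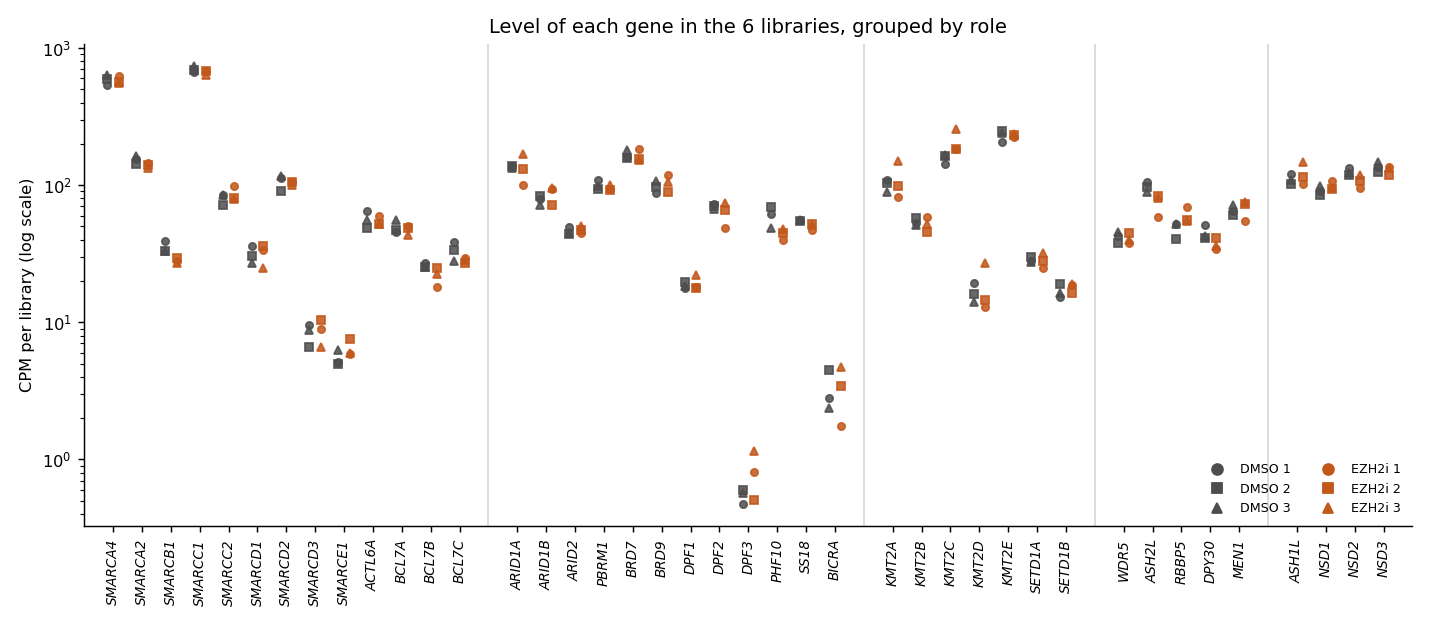
CPM on a log scale of the 41 genes with reads, in each of the 6 libraries, grouped by role (*ACTL6B* had no reads). Genes run from *DPF3*, under 1.2 CPM, to *SMARCC1*, at 632 to 740 CPM. The libraries of a gene can lie well apart, as for *KMT2D* at 13.0 to 27.1 CPM. Levels are scaled read counts. Exons of other genes and repeated sequence near transcript ends may affect those of some genes, so ranks by level are uncertain.

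The lysine 36 methyltransferases had intervals within -0.5 and 0.5 for all 4 genes. *ASH1L*, homolog of a fly trithorax-group gene, had 122, 101.8 and 109 CPM in DMSO and 103, 114 and 146 CPM in EZH2i, and its log2 fold change was 0.13, or -0.03 without EZH2i replicate 3. *NSD1*, mutated in Sotos syndrome, had 91.7 ± 7.11 and 98.6 ± 7.44 CPM. *NSD2*, the gene activated by the t(4;14) translocation of myeloma, had 124 ± 7.61 and 107 ± 11.97 CPM, with the lowest log2 fold change of this list at -0.22, or -0.13 without EZH2i replicate 1, and an edgeR adjusted p-value of 0.291. *NSD3* had 135 ± 10.9 and 129 ± 8.53 CPM.

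Most of these genes have close paralogs, and the share of each paralog group's reads that fell on its first-named gene was compared within libraries, which removes library scaling. Shares are of reads, and do not compare amounts of protein. In 12 paralog groups, 11 of which could be tested, only *NSD1* within *NSD1*, *NSD2* and *NSD3* had groups that did not overlap. Its share was 25.4%, 25.97% and 27.0% in DMSO and 31.8%, 29.2% and 27.5% in EZH2i, a difference of 3.36 percentage points, or 2.20 without EZH2i replicate 1. The two-sided exact permutation test gave p = 0.1, the smallest that 3 libraries against 3 allow, and 0.629 after Benjamini-Hochberg adjustment over the 11 groups. *SMARCA4* held 79.4% ± 1.498 of the ATPase reads in DMSO and 80.7% ± 0.531 in EZH2i, and *SMARCC1* held 89.7% ± 0.894 and 88.6% ± 1.08 of the SMARCC reads, within the limit given above for *SMARCC2*. *ARID1A* held 63.4% ± 1.25 of the ARID1 reads in DMSO and 60.1% ± 7.14 in EZH2i, where replicate 1 alone lay low, at 51.8%. *KMT2A* held 58.3% to 74.4% of its pair in EZH2i and 63.4% to 67.3% in DMSO. *ACTL6A* held all reads of its pair in every library. The difference in share changed sign when 1 library was left out for *SMARCD1*, *ARID1A*, *KMT2A* and *SETD1A*.

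**Figure D4:**
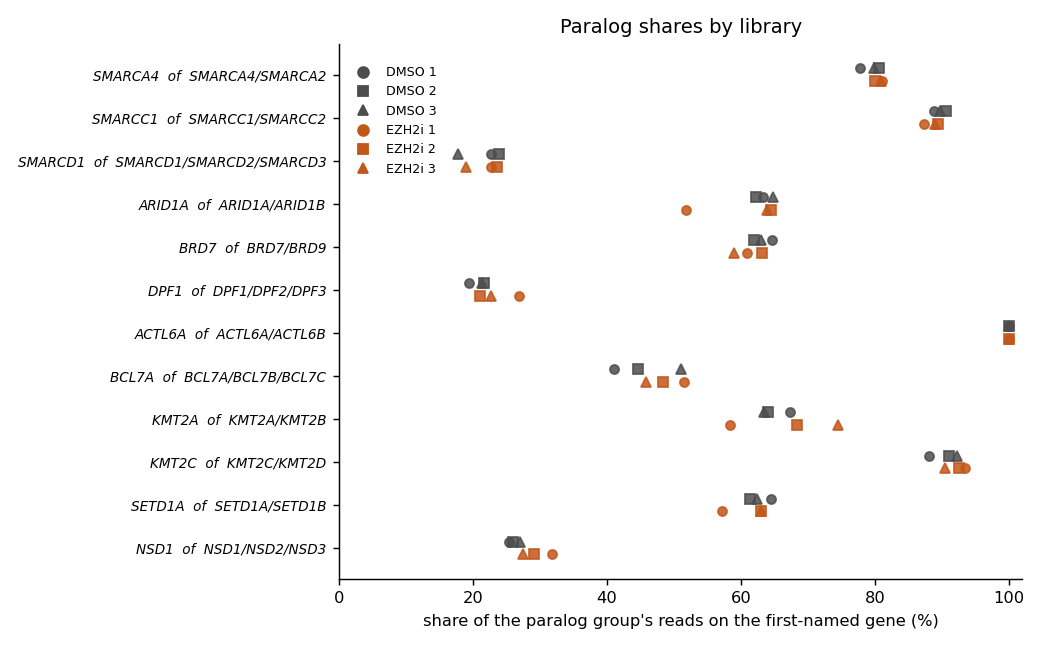
Share of each paralog group's reads on its first-named gene (percent) in each library, with DMSO and EZH2i on separate rows of points and a marker shape for each replicate number. The DMSO and EZH2i points overlap in all groups but that of *NSD1*, with EZH2i replicate 1 apart for *ARID1A* at 51.8% and the EZH2i libraries of *KMT2A* spread from 58.3% to 74.4%.

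The EZH2i libraries differed among themselves for several of these genes. EZH2i replicate 3 was the highest of the 6 libraries for 12 of the 40 genes and the lowest for 7, and EZH2i replicate 1 was the highest for 6 and the lowest for 14. EZH2i replicate 2 was the highest for 2 and the lowest for 6. DMSO replicates 1, 2 and 3 were the highest for 9, 3 and 8 and the lowest for 5, 8 and 0. The same counts were not made over all tested genes. The deviation of EZH2i replicate 3 from the mean of the other EZH2i libraries, as log2(CPM + 0.5), had a median of 0.22 over the 13 genes whose longest transcript exceeds 8000 bases and of -0.05 over the other 27. The same medians were -0.20 and -0.0015 for EZH2i replicate 1 and -0.17 and 0.04 for EZH2i replicate 2, and the 3 deviations of a gene are not independent, since each library is set against the others. Across the 40 genes, Spearman's rho of the deviation with the length of the longest transcript was -0.117 in EZH2i replicate 1, -0.521 in replicate 2 and 0.372 in replicate 3, as a description across genes. Over 12342 tested genes it was -0.0394, -0.0284 and 0.0481 in these libraries, and for the 40 genes in the DMSO libraries it was -0.238, 0.223 and -0.037. The deviations of replicate 3 ran from -0.52 for *SMARCD3* and -0.48 for *SMARCD1*, both with transcripts under 8000 bases, to 0.95 for *KMT2D*. The highest after *KMT2D* were 0.81 for *BICRA*, 0.75 for *KMT2A*, 0.56 for *ARID1A*, 0.48 for *KMT2C*, 0.43 for *ASH1L* and 0.38 for *DPF2*. Of these, *BICRA* and *DPF2* have shorter transcripts, of at most 5739 and 4840 bases, while *SMARCE1* and *NSD1*, both over 8000 bases, lay at -0.13 and -0.07. Over all 1094 tested genes with a transcript longer than 8000 bases the median was 0.07. The split at 8000 bases was chosen after the values were seen and has no test. This library also had the highest share of reads assigned to no feature, 12.7%, and the part of either in these values was not tested.

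**Figure D5:**
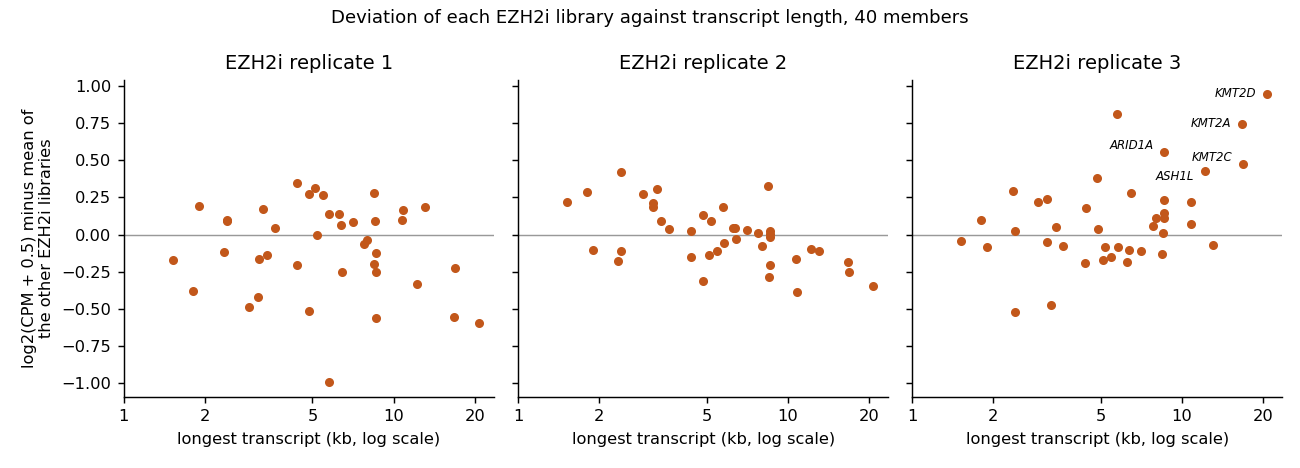
Deviation of each EZH2i library from the mean of the other EZH2i libraries, as a difference of log2(CPM + 0.5), against the longest annotated transcript (kb, log scale) for the 40 tested genes. In replicate 3 *KMT2A*, *KMT2C* and *KMT2D*, the longest, lie above 0, up to 0.95 for *KMT2D*, with the shorter *BICRA* at 0.81, and in replicate 1 *KMT2D* lies at -0.60.

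Other genes of these pathways were examined as lists chosen by name, and their counts stand beside the 4.26% called among all tested genes. Among 5 other SWI/SNF genes, 3 were tested and 0 were called, and *BCL11A* and *BCL11B* had too few reads. Among 11 further COMPASS partners, including *KDM6A*, the lysine 27 demethylase of the KMT2C and KMT2D complexes, 0 were called. Among 11 genes of PRC2 and its accessory factors, 0 were called. Of these 11, 3 had log2 fold changes above 0 and 8 below, the lowest being -0.35 for *PHF1*. The highest of the 11 was that of *JARID2*, a gene named after its values were seen. It had 192 ± 7.33 CPM in DMSO and 234 ± 17.6 CPM in EZH2i, with a log2 fold change of 0.28 at an edgeR adjusted p-value of 0.122. That adjusted p-value was 0.037 without EZH2i replicate 1 and ran up to 0.32 over the alternatives. Among 14 other trithorax-group homologs and partners, 1 was called, *CHD7*. With lists this short, such counts do not stand apart from the share of all genes.

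*CHD7*, the CHARGE syndrome remodeler and homolog of the fly trithorax-group gene kismet (chr 8, 60678740 to 60868028, plus strand), rose after EZH2 inhibition. It had 63.5, 63.3 and 72.9 CPM in DMSO and 118.7, 104.5 and 112.7 CPM in EZH2i. All EZH2i libraries lay above all DMSO libraries, with means of 66.5 ± 5.46 and 112 ± 7.09 CPM, a ratio of 1.68. The log2 fold change was 0.75 ± 0.11 (SE), with a 95% interval from 0.52 to 0.98 and an edgeR adjusted p-value of 0.000852. Over the alternatives the log2 fold change ran from 0.71 to 0.82, and the highest adjusted p-value was 0.0129. Each of the 40 genes had a point estimate nearer to 0 than that of *CHD7*, while the 95% intervals of the 40 and of *CHD7* all lay between -1 and 1. *CHD7* was named because it was called, so its larger estimate follows in part from that choice. The difference between the 40 genes and *CHD7* was not tested.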

How the data were processed

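QuantSeq 3′ mRNA libraries, in which reads come from near a transcript's poly(A) tail, were sequenced as single-end 50 bp reads. The authors counted reads per Ensembl gene on hg38 and deposited raw counts for each library. The submitters' processing notes name STAR 2.6.0c, HTSeq 0.11.2 and DESeq2, and the strand setting is not given in the sources used here. A deposited table of the authors' own comparison, with fold changes and p-values, was not used. Rows naming no gene held 32.1% to 36.4% of the listed reads and entered neither library sizes nor tests.

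The test was that of edgeR 4.0.16 under R 4.3.3 (TMM, filterByExpr with a minimum count of 10, glmQLFit, glmQLFTest, two-sided, no covariate), with Benjamini-Hochberg adjustment over all 12364 tested genes and a threshold of 0.05. The SE is the size of the log2 fold change divided by the square root of F, and intervals use the t distribution with the fit's total degrees of freedom. DESeq2 1.42.0, limma-voom (limma 3.58.1), RLE size factors, other filters, a threshold of 0.01, a replicate block and fits without each replicate in turn were alternatives. The fits were also run on simulated data, and the outcome is not reported here. Same-numbered libraries of the 2 groups had deviations correlated at -0.051, -0.018 and -0.017, so the numbers were not taken to pair samples. Chi-square divided by its degrees of freedom was 4.25 to 11.5 between replicates, so none was a copy of another.

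All 42 genes were named by rule, with the called genes of 4 further lists, at most 5 a list. Of the cell type markers, 1 erythroid gene and the B cell list are not reported here. The genes and lists were chosen with earlier results of these data known. Positions and exons come from GENCODE 44 on GRCh38, and promoters from RefSeq, where each gene's most upstream start is shown. Overlap with other genes and repeats were measured on the 500 bases before each annotated transcript end, with windows of 50 bases. With 6327544 to 8987768 reads on genes a library, the tested genes of the set had 150 to 31439 reads over all libraries.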

Additional observations from a re-analysis of the deposited data

How the results depend on the processing

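The count of 527 called genes was 928 without a filter on low counts and 148 at an adjusted p-value under 0.01, and it ran from 209 to 536 when each replicate was left out (213, 209 and 240 without DMSO replicates 1, 2 and 3). Of the 40 tested Polycomb antagonists, 3 were called without the filter (*KMT2C*, *ASH2L* and *PHF10*), and leaving out each replicate gave 0 to 1: *PHF10* without DMSO replicate 3 and *KMT2C* without EZH2i replicate 1. Their median log2 fold change ran from -0.0361 to 0.0211 when each replicate was left out, with the only value above 0 without DMSO replicate 3, and was -0.0479 without the filter. With a replicate block, 599 genes and 0 of the 40 were called, and the median was -0.027. Libraries with the same number share only that number. The number of genes with intervals within 0.5 log2 units ran from 24 to 31 over its alternatives. Among 480 log2 fold changes of the 40 genes under 12 alternatives, 432 kept direction and side of the threshold, 43 changed sign and 5 passed the threshold, and 20 genes kept their direction throughout. By DESeq2 the sign changed for *SMARCD1* (-0.000334) and *KMT2E* (-0.0154), by limma-voom for *BICRA* (-0.039), with RLE size factors for *KMT2E* (-0.00563), and without the filter for *SMARCD1* (-0.00446), *BICRA* (-0.00791) and *KMT2E* (-0.0213). Leaving out each replicate gave log2 fold changes on both sides of 0 for *SMARCA4* (-0.0881 to 0.0355), *SMARCC2* (-0.0224 to 0.146), *SMARCD1* (-0.0884 to 0.162), *SMARCD2* (-0.139 to 0.0284), *SMARCD3* (-0.0884 to 0.234), *ARID1A* (-0.233 to 0.143), *ARID2* (-0.0134 to 0.0887), *BRD7* (-0.122 to 0.0316), *DPF1* (-0.0563 to 0.109), *ACTL6A* (-0.145 to 0.0555), *BCL7A* (-0.118 to 0.0324), *BICRA* (-0.32 to 0.348), *KMT2A* (-0.146 to 0.318), *KMT2B* (-0.152 to 0.0385), *KMT2D* (-0.241 to 0.345), *KMT2E* (-0.0795 to 0.0593), *SETD1A* (-0.111 to 0.0719), *WDR5* (-0.118 to 0.0283), *MEN1* (-0.0275 to 0.181) and *ASH1L* (-0.0298 to 0.236). The difference in paralog share changed sign for *ARID1A* (-3.37 to 0.755 points without EZH2i replicate 1), *KMT2A* (2.17 to -1.52 without EZH2i replicate 3), *SETD1A* (-1.73 to 0.219 without EZH2i replicate 1) and *SMARCD1* (0.253 to -1.59 without DMSO replicate 3, and below 0 without EZH2i replicates 1 or 2). Leaving out *DPF3*, which had few counts, gave 2.81 points for *DPF1* in place of 2.70, and no other group was recomputed this way. The causes were not tested. The fewest reads among the tested genes, 150, 275 and 389 over all libraries, were those of *BICRA*, *SMARCE1* and *SMARCD3*, and *DPF3* and *ACTL6B* could not be tested.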
